A study of Drosophila melanogaster with 12 samples.

Results

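Wing imaginal discs kept in culture without added hormone were described here by the level of every measured gene. These are the 3 libraries of the 0 nM group, of 12 libraries in the whole series, and all 12216 genes of the deposited table were examined in them. The discs came from w1118 Drosophila melanogaster larvae, a white-eyed laboratory strain, dissected 24 h after the moult into the third larval stage. They were held for 2.5 h at 25 °C in Dye medium, to which no 20-hydroxyecdysone, the active steroid moulting hormone, had been added. The rest of the series used the same strain, stage and culture time with 20, 200 or 2000 nM of the hormone, and was not compared here. The labels do not say whether the 3 libraries came from separate dissections or how many discs each pooled, so every ± below is an SD over 3 libraries whose spread may be technical.

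The wing disc is a folded epithelial sac that gives rise to the adult wing blade, the hinge and the dorsal body wall, or notum. Its sheet carries the wing-forming cells, and muscle precursor cells and a tracheal branch lie against its basal side. Signals of the Wingless, Decapentaplegic, Hedgehog and Notch pathways divide the sheet into territories while it grows, and ecdysone pulses time its later maturation.

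The 3 libraries held 11490448, 14369671 and 24596727 reads assigned to genes in replicates 1, 2 and 3. All triplets of values below stand in that order. Each read was worth 1.31, 1.07 and 0.632 normalised counts, and 1499, 1263 and 1004 genes had no read. Levels of different genes are compared as TPM, a length-corrected share of a library, which divides the deposited normalised count by the exon length of the gene and scales each library to the same sum. A gene counts as detected when it reached 1 TPM in each of the 3 libraries. Of the 12167 genes with an exon length, 7679 (63.1%) were detected, and they carried 99.8% of the TPM. Another 335 genes had no read in any of the 3 libraries. The median gene stood at 10.9 TPM, and the median detected gene at 37.0 TPM.

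The territory genes of the wing disc were read at intermediate to high levels. All 17 genes listed for the pouch, hinge and margin were detected, with a median of 102 TPM. The selector gene of the wing field, vg, had 175, 154 and 132 TPM, which gives 154 ± 21.5 TPM (gene FBgn0003975 on 2R). The POU-domain gene nub, which marks the pouch, had 96.5, 90.3 and 78.7 TPM, or 88.5 ± 9.06 TPM (FBgn0085424 on 2L). The 3 values of vg lay above all 3 of nub, and vg over nub was 1.73 ± 0.0706 within a library. With the longest transcript of each gene as its length, this ratio was 1.47. The partner of vg in DNA binding, sd, stood at 126 ± 12.8 TPM. The Spalt genes, which read the Decapentaplegic gradient, stood at 135 ± 9.13 TPM for salr and 102 ± 14.5 TPM for salm. A further reader of that gradient, bi, stood at 102 ± 14.4 TPM, and the rotund gene rn of the distal wing at 102 ± 7.4 TPM. Dll, which is used in the wing at the margin, was lower at 41 ± 3.62 TPM. The lowest of the 17 was ct, a margin gene, with 6.31, 4.39 and 4.61 TPM. Neighbouring genes in this order mostly had overlapping values, but brk, Dll and pdm2 were each apart from the next one down. In bulk libraries such as these, fewer cells of a type and less RNA per cell cannot be told apart.

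Hinge and notum genes were read beside those of the pouch. Sox15, a hinge gene, had 236, 203 and 188 TPM, and it led the list of 17. The zinc-finger gene tsh and its homeodomain partner hth, which mark the proximal disc, stood at 169 ± 14.5 TPM and 102 ± 10.7 TPM. All 10 notum genes were detected, with a median of 30.1 TPM. The Iroquois genes, which set the notum against the hinge, stood at 87.1 ± 16.1 TPM for mirr, 77.5 ± 12.5 TPM for caup and 58.2 ± 8.02 TPM for ara. The Pax genes of the notum, toe and eyg, stood at 79.5 ± 6.66 TPM and 33.5 ± 1.68 TPM. The GATA factor pnr of the medial notum had 18.4, 14.8 and 16.6 TPM. The Bar genes of the prescutum were the lowest of the 10, at 2.8 ± 0.679 TPM for B-H2 and 1.79 ± 0.565 TPM for B-H1.

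Genes that divide the disc into compartments were all detected, 15 of 15, with a median of 86.5 TPM. The dorsal selector ap had 200.4, 172 and 166 TPM, and its cofactor Chi stood at 124 ± 5.31 TPM. The posterior selectors en and inv, a pair of neighbouring homeobox genes, stood at 71.5 ± 2.77 TPM and 40.5 ± 2.76 TPM. Within a library en over inv was 1.77 ± 0.0543, or 1.43 by the longest transcript of each gene. The glycosyltransferase gene fng, which biases Notch towards one of its ligands at the dorsal-ventral border, led the list with 285, 244 and 239 TPM. Ser, the Notch ligand of the dorsal side, had 157, 141 and 120.2 TPM, against 106, 88.4 and 72.2 TPM for the other ligand, Dl. The margin signal wg, a Wnt, had 45.4, 46.4 and 35.7 TPM, which gives 42.5 ± 5.87 TPM (FBgn0284084 on 2L). Replicates 1 and 2 lay close together for wg and replicate 3 was lower.

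**Figure D1:**
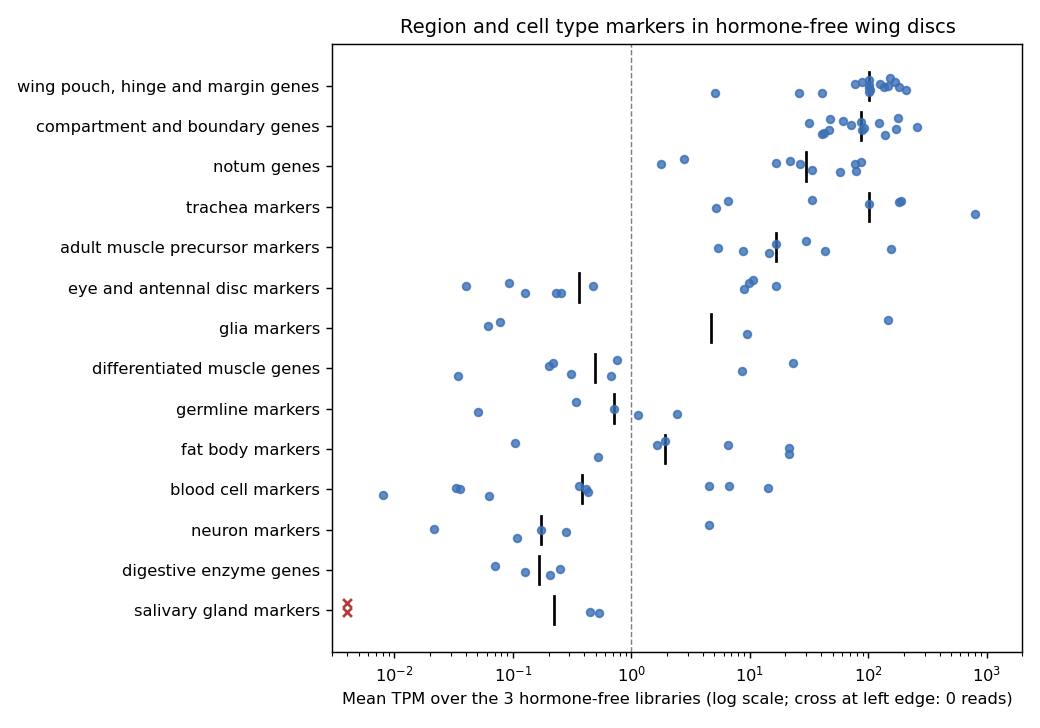
Level of each marker gene in TPM on a log scale for the lists of disc regions, cell types and tissues, with 1 point for the mean of each gene over the 3 libraries, a bar at each list's median and a dashed line at 1 TPM. A red cross marks a gene with 0 reads. Wing disc lists (pouch and hinge, compartments, notum) have medians from 30.1 to 102 TPM, while the lists for fat body, blood cells, neurons, salivary gland and digestive enzymes have medians from 0.167 to 1.94 TPM. The lists for trachea, muscle precursors and glia have medians of 101, 16.7 and 4.75 TPM.

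The cells that lie against the disc epithelium were read as well. All 7 muscle precursor markers were detected, with a median of 16.7 TPM. The factor twi, which marks these cells in the disc, had 28.6, 27.6 and 33.5 TPM, which gives 29.9 ± 3.17 TPM (FBgn0003900 on 2R). Their FGF receptor htl had 17.9, 15.8 and 16.2 TPM, which gives 16.7 ± 1.1 TPM (FBgn0010389 on 3R). Within a library twi over htl was 1.80 ± 0.239. The adaptor that acts downstream of FGF receptors, stumps, stood at 43 ± 3.69 TPM, and the zinc-finger factor zfh1 at 8.74 ± 1.28 TPM. Him, an inhibitor of muscle differentiation, was the lowest at 5.36 ± 1.3 TPM. Ama, a secreted adhesion protein gene, stood at 155 ± 3.81 TPM, the highest of the 7. Sarcomere genes of differentiated muscle were mostly below the detection level, with 2 of 8 detected. Those were the myosin light chain gene Mlc2 at 23 ± 2.01 TPM and the titin-like gene sls at 8.57 ± 1.49 TPM. Myosin heavy chain, Mhc, had 0.803, 1.1 and 0.343 TPM.

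Tracheal markers were detected in 7 of 7 cases, with a median of 101 TPM. The defining tracheal factor trh had 36, 34.2 and 30.2 TPM, and the tracheal FGF receptor btl had 6.77, 6.83 and 6.13 TPM. The chitin deacetylase genes verm and serp, known for the tracheal lumen, stood at 796 ± 25.8 TPM and 181 ± 4.91 TPM. Their ratio, verm over serp, was 4.40 ± 0.0399, or 4.62 by longest transcript. The POU factor vvl stood at 189.5 ± 22 TPM, but this gene is also known from the wing epithelium, where it acts in veins.

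Markers of other tissues were low. Of 10 blood cell markers 1 was detected, the scavenger receptor gene crq at 14.1 ± 2.46 TPM, while Hml, a hemolectin gene of plasmatocytes, had 0.777, 0.414 and 0.108 TPM. Without replicate 3 the count was 3 of 10. Of 7 fat body markers none was detected, although the larval serum protein gene Lsp1beta had 12.7, 0.101 and 52.1 TPM. The summed TPM of the 7 was 40.1, 2.63 and 119, so the sum was lowest in replicate 2. Without replicate 2 the count of detected fat body markers was 4, and without replicate 1 it was 1. Of 5 neuron markers 1 was detected, elav at 4.5 ± 1.21 TPM, and 27.9% of its exon bases overlap other genes on the same strand. The synaptic genes nSyb, Syt1 and brp and the sodium channel gene para were each under 1 TPM in all 3 libraries. Of 4 glia markers 2 were detected. These were nrv2 at 146 ± 10.8 TPM, which encodes a sodium pump subunit also used in epithelial septate junctions, and the receptor gene moody at 9.42 ± 1.75 TPM. The defining glial factor repo had 0.187, 0 and 0 TPM.

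No salivary glue gene was detected, of 4 measured, and Sgs3 and Sgs7 had no read. No digestive enzyme gene was detected, of 4 measured. Germline markers reached the level in 1 of 5 cases, the piRNA pathway gene aub with 2.78, 3.36 and 1.16 TPM, and in 2 of 5 without replicate 3. Of 10 markers of the eye and antennal disc 4 were detected. They were the retinal determination genes so at 16.7 ± 1.38 TPM, eya at 9.83 ± 1.14 TPM and dac at 8.87 ± 1.66 TPM, and the bHLH-PAS gene ss at 10.6 ± 2.22 TPM. The eye selector ey had 0.251, 0.187 and 0.257 TPM, and the photoreceptor factor gl had 0.11, 0.123 and 0.0469 TPM. The part that other tissues' RNA has in the levels of genes they share with the disc was not tested.

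Hox genes assign segments their identity, and the wing segment is the second thoracic one. Of 5 Hox genes measured, Antp and Ubx were detected, while pb, Dfd and abd-A were not in the table. Antp, the Hox gene of the middle thorax, had 11.8, 8.47 and 8.57 TPM, although 50.1% of its exon bases overlap another gene on the same strand. Ubx, which sets the haltere apart from the wing, had 2.87, 2.6 and 2.87 TPM. The values of the pair did not overlap. The genes lab, Scr and Abd-B of other segments were at or under 0.122 TPM in every library.

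The machinery that receives the hormone was read in these hormone-free discs. The steroid acts through a heterodimer of EcR and usp, a pair of nuclear receptors, and induces further nuclear receptors in a cascade. EcR had 79.8, 67.1 and 67.1 TPM, and usp had 70.2, 59.1 and 62.1 TPM. Their values overlapped, and EcR over usp was 1.12 ± 0.0326 within a library. Exons of usp overlap those of a neighbouring gene, Actn. Of 19 nuclear receptors measured 12 were detected, a share near the 63.1% of all genes with a length. The median over the 19 was 6.40 TPM. Hr78, an orphan receptor, led the list at 86.5 ± 7.8 TPM, with values that overlap those of EcR.

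The receptors that the cascade induces differed widely in level. The competence factor ftz-f1 had 37, 33.9 and 31.7 TPM, and 29.4% of its exon bases overlap other genes on the same strand. Hr39, its relative, had 34.7, 28.8 and 28.2 TPM. The early gene Eip75B had 1.11, 1.13 and 0.865 TPM, under the detection level in replicate 3. Eip78C had 0.254, 0.355 and 0.312 TPM, and Hr4 had 0.228, 0.21 and 0.229 TPM. Hr3, an early-late receptor, had no read in any library, but 82.7% of its exon bases overlap other genes on the same strand and such reads may not be assigned. Thus 2 of the 6 listed inducible receptors were detected, ftz-f1 and Hr39, and the other 4 stood at a mean of at most 1.03 TPM. Among receptors outside the cascade, kni of the second vein stood at 32 ± 5.77 TPM, the fatty acid sensor Hnf4 at 25.8 ± 3.2 TPM, and svp at 6.4 ± 0.523 TPM.

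Genes for import and response stood higher than genes for synthesis. Oatp74D, which carries ecdysone into cells, had 130.1, 119 and 108 TPM. The receptor cofactors Smr, rig and tai stood at 79.2 ± 15.8 TPM, 71.5 ± 8.88 TPM and 42.7 ± 4.21 TPM. The synthesis genes work mainly in the prothoracic gland, apart from shd, which makes the final active form in target tissues. The listed synthesis genes nvd, spo and spok were not in the table. Of 6 measured, sro, Cyp6t3 and sad were detected, at 3.26 TPM, 3.2 TPM and 3.05 TPM. The others were phm with 0.593, 0.252 and 0.506 TPM, dib with 0.472, 0.141 and 0.121 TPM and shd with 0.186, 0.461 and 0.264 TPM. Cyp18a1, which inactivates the hormone and is itself inducible by it, had 0.551, 0.775 and 0.261 TPM. All 3 values of tai, the lowest of the cofactors, lay above all values of the synthesis genes.

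**Figure D2:**
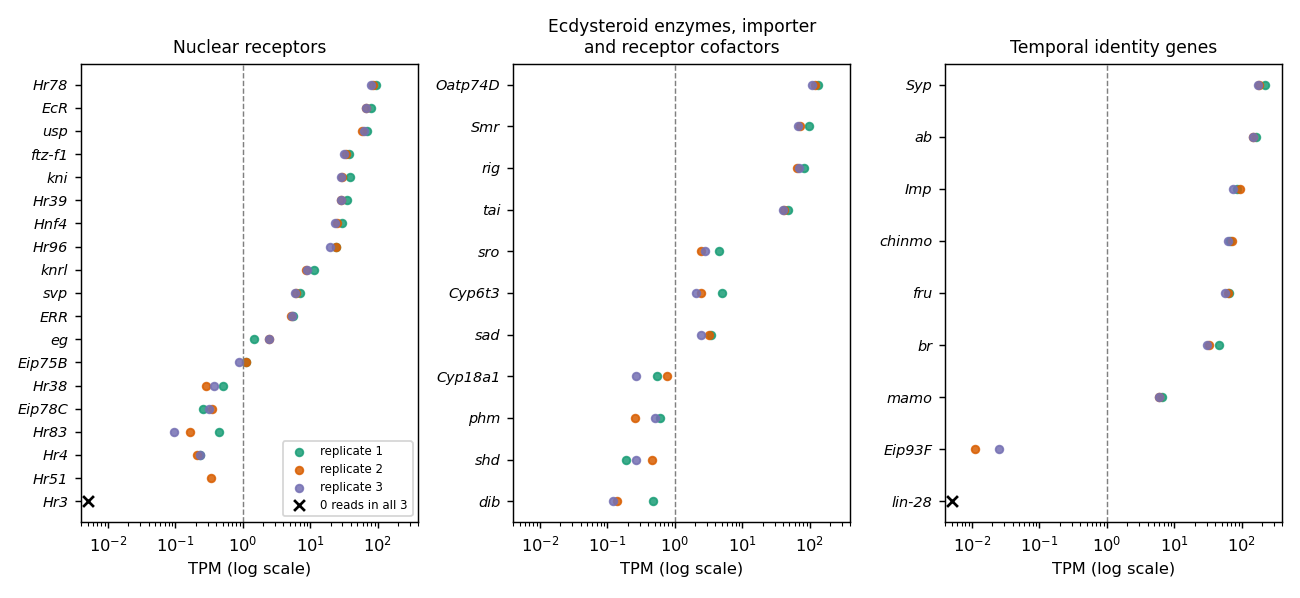
Level in TPM on a log scale of the nuclear receptors, the genes of ecdysteroid synthesis, import and inactivation, and the temporal identity genes, with 1 point for each library, a dashed line at 1 TPM and genes in order of their mean. A single library with 0 reads is not drawn, and a cross marks a gene with 0 reads in all 3. EcR and usp lie between 59.1 and 79.8 TPM, while Eip78C and Hr4 lie between 0.210 and 0.355 TPM.

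Temporal identity genes switch as tissues pass through the last larval stage and were detected in 7 of 9 cases. The early-stage factor chinmo had 67.2, 71.7 and 61.9 TPM. The hormone-inducible factor br, which marks the later larval stage, had 45.3, 32.96 and 29.996 TPM. By total exon length chinmo over br was 1.91 ± 0.372, but by the longest transcript of each gene it was 0.945, so the order of the pair depends on the length used. The RNA-binding proteins Imp and Syp, which oppose each other in ageing neuroblasts, stood at 84 ± 9.93 TPM and 191 ± 28.3 TPM. The BTB factors ab and fru stood at 151 ± 7.4 TPM and 61.3 ± 4.38 TPM. Eip93F, the factor of the pupal and adult stages, had 0, 0.011 and 0.0251 TPM, and the heterochronic gene lin-28 had no read.

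The Wnt pathway was almost complete, with 24 of 26 measured genes detected and a median of 60.2 TPM. Another listed ligand, wntD, was not in the table. Among its ligands, Wnt5 stood at 55.1 ± 5.89 TPM, wg at 42.5 ± 5.87 TPM, Wnt6 at 29.8 ± 3.99 TPM and Wnt2 at 19 ± 0.335 TPM. Wnt6 lies next to wg in the genome, and wg over Wnt6 was 1.43 ± 0.0475. Wnt4 and Wnt10 were not detected, with 1.27, 1.07 and 0.852 TPM for Wnt4 and a mean of 0.619 TPM for Wnt10. The receptors fz2, fz and arr stood above all 6 ligands, while fz4 at 47.7 ± 6.2 TPM and fz3 at 34.8 ± 6.04 TPM lay among them. The receptor gene fz2 had 285, 241 and 219 TPM, and its paralogue fz had 121, 104 and 90.9 TPM. By total exon length fz2 over fz was 2.37 ± 0.0436, but by the longest transcript of each gene it was 3.08. The co-receptor arr stood at 211 ± 29.3 TPM. The glypicans dally and dlp, which spread and hold Wnt proteins at the cell surface, stood at 189.7 ± 34.4 TPM and 107 ± 16 TPM. The carrier wls, which brings Wnt proteins to the surface, stood at 154 ± 6.46 TPM. The beta-catenin gene arm, which also serves adherens junctions, had 744, 653 and 659.8 TPM and was the highest of the list. The transcriptional partner pan stood at 17.7 ± 4.05 TPM, the lowest of the 9 transducers. The inhibitors nkd and Notum, both targets of the pathway in the wing, stood at 101 ± 16.4 TPM and 18.9 ± 3.17 TPM.

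In the BMP and activin pathway 18 of 21 genes with a length were detected, with a median of 71.2 TPM. Another listed ligand, scw, was not in the table. The morphogen dpp had 51.2, 49.3 and 40.9 TPM, and the second BMP ligand, gbb, had 223, 207 and 201 TPM. All 3 values of gbb were above those of dpp, and the ratio was 4.49 ± 0.376, or 3.64 by longest transcript. The type I receptor tkv had 266, 238 and 220.0 TPM, the highest level of the list. The type II receptor put stood at 82.2 ± 6.66 TPM. The transducers Mad and Smox stood at 135 ± 5.76 TPM and 164 ± 16.1 TPM. The pathway's inhibitors Dad, a target of the signal, and brk, which the signal represses, stood at 87.6 ± 14.7 TPM and 77.4 ± 15.7 TPM. Among extracellular modulators, cv-2 of the crossveins stood at 68.4 ± 4.61 TPM and sog at 26.7 ± 6.55 TPM. Among the other ligands of the family, mav stood at 103 ± 11.5 TPM and myo at 46.8 ± 7.02 TPM, while Actbeta and daw were under 1 TPM in all 3 libraries.

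All 12 Hedgehog pathway genes were detected, with a median of 67.9 TPM. The ligand hh, made in the posterior compartment, had 65.7, 58.4 and 59 TPM. The receptor ptc had 100.4, 77.7 and 81.4 TPM, and the transducer smo had 48.5, 37.7 and 36.3 TPM. Exons of smo overlap genes on the other strand over 27.1% of their bases. The co-receptors ihog and boi stood at 228 ± 24.2 TPM and 99.1 ± 8.51 TPM. The transcription factor ci, made in the anterior compartment, had 213, 152 and 154 TPM. The ligand acyltransferase rasp stood at 65.2 ± 4.06 TPM, and disp, which releases the ligand, at 35.6 ± 4.92 TPM.

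EGF receptor pathway genes were detected in 18 of 19 cases, with a median of 49.6 TPM. The ligand gene spi had 435, 360.3 and 325 TPM, the highest level of the 31 ligands measured in all the pathways here. Its relatives Krn and vn stood at 49.6 ± 5.46 TPM and 29.9 ± 8.44 TPM, and spi over Krn was 7.57 ± 1.16. Exons of Krn overlap other genes on the same strand over 21.3% of their bases. The rhomboid protease gene rho, which releases active spi protein in vein cells, had 2.3, 2.5 and 1.7 TPM, and its relative ru had 0.207, 0.386 and 0.266 TPM. All 3 values of spi lay above all values of these proteases. The receptor gene Egfr stood at 166 ± 23 TPM. The feedback inhibitors kek1, sty and aos stood at 142 ± 10.2 TPM, 69.1 ± 7.93 TPM and 47.3 ± 6.18 TPM.

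In the FGF pathway 6 of 6 genes were detected, with a median of 15.4 TPM. The adaptor stumps, given above, was the highest of the 6. The ligands ths and pyr, which act on htl, stood at 20.8 ± 3.44 TPM and 14.1 ± 1.36 TPM. The ligand bnl, which acts on btl, had 3.76, 2.99 and 2.57 TPM.

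Notch pathway genes were detected in 20 of 21 cases, with a median of 69.3 TPM. The receptor N had 241, 183 and 169.6 TPM. Within a library N over Dl was 2.23 ± 0.141, and Ser over Dl was 1.58 ± 0.0918. Su(H), which binds the target genes, stood at 27.9 ± 2.93 TPM, and its antagonist H at 64.3 ± 9.05 TPM. The targets of the E(spl) cluster differed among themselves. E(spl)mbeta-HLH had 174, 164 and 163 TPM, and E(spl)mgamma-HLH had 17.8, 20.4 and 19.2 TPM, a ratio of 8.76 ± 0.885. E(spl)m5-HLH, at 1.06, 1.1 and 0.542 TPM, was the one target under the detection level. The ubiquitin ligases that activate the ligands stood at 137 ± 14.5 TPM for mib1 and 6.78 ± 1.34 TPM for neur. Exons of neur overlap genes on the other strand over 38.8% of their bases.

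All 14 genes of the JAK/STAT, TNF and PDGF/VEGF pathways were detected, with a median of 31.7 TPM. Receptors and transducers led the list, with the cytokine receptor dome at 119 ± 14.6 TPM, Stat92E at 122 ± 15.1 TPM and the TNF receptor grnd at 113 ± 8.14 TPM. The cytokine genes upd1, upd2 and upd3 stood at 5.17 TPM, 2.1 TPM and 1.23 TPM. The TNF gene egr stood at 10.1 ± 0.249 TPM.

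Insulin and TOR genes were detected in 16 of 17 measured cases, with a median of 37.2 TPM. The other 6 listed genes, the ligands Ilp1, Ilp2, Ilp3, Ilp4, Ilp5 and Ilp7, were not in the table. The receptor InR stood at 26.1 ± 4.11 TPM, the kinase Akt at 76.2 ± 7.06 TPM and Tor at 39.1 ± 5.8 TPM. Thor, which restrains translation downstream of Tor, had 149, 163 and 209 TPM and was highest in replicate 3. The exception was the relaxin-like gene Ilp8, which delays pupariation when discs are damaged, with 3.01, 4.17 and 0.368 TPM.

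Over all lists, neighbours in the order of mean TPM had values that did not overlap in 169 of 411 pairs (41.1%). Over all pathways together, receptors had a higher median than ligands. Of 39 ligands listed 31 were in the table, and 26 of those were detected, with a median of 19.0 TPM over the 31. All 23 receptors were detected, with a median of 82.2 TPM and a range from 6.57 TPM for btl to 249 TPM for fz2. The ligand spi stood above all 23 receptors, and in the FGF pathway the ligands had a higher median (14.1 TPM) than the receptors (11.6 TPM).

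**Figure D3:**
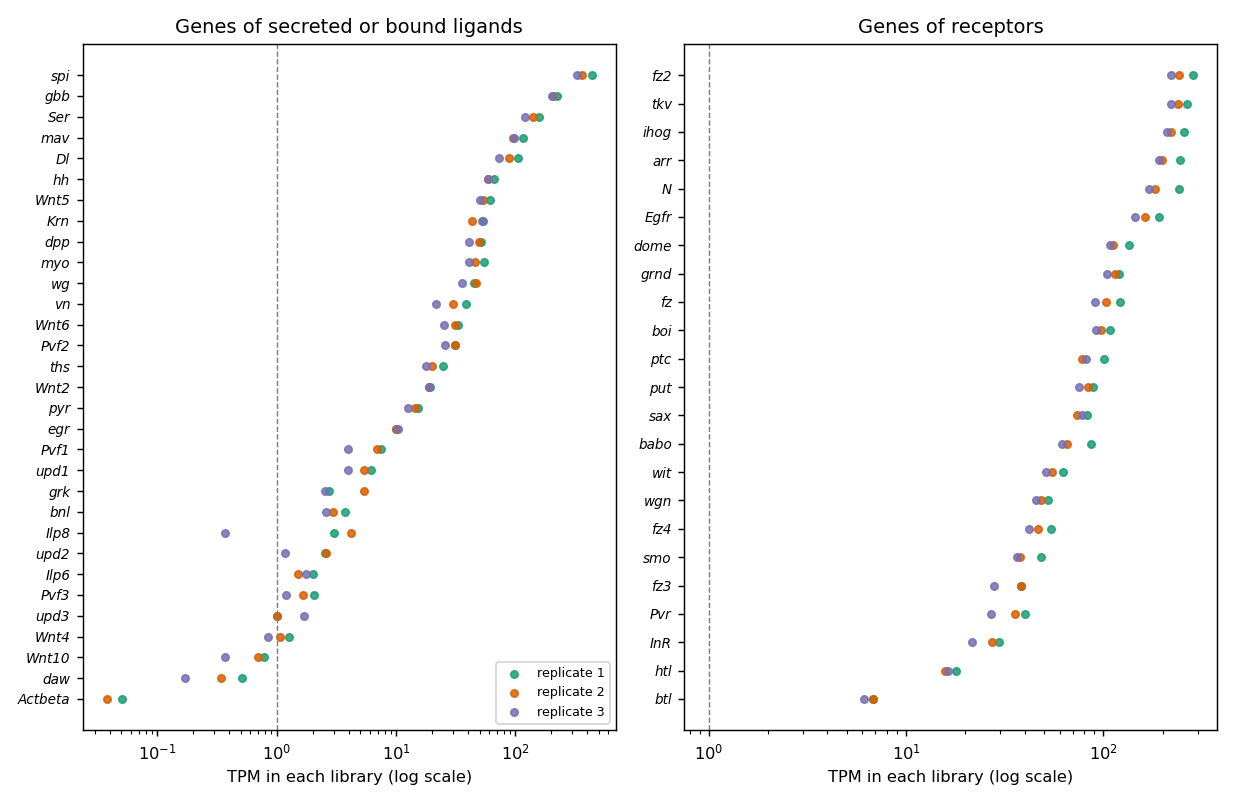
Level in TPM on a log scale of the ligand genes (left) and receptor genes (right) of all pathways, with 1 point for each library, a dashed line at 1 TPM and genes in order of their mean. A library with 0 reads is not drawn. Receptors have a median of 82.2 TPM and ligands one of 19.0 TPM.

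Growth control genes of the Hippo pathway, which restrains organ size, were detected in 15 of 15 cases with a median of 145 TPM. The atypical myosin gene d led with 521, 440.0 and 428 TPM, and the upstream regulator ex, itself a target of the pathway, had 343, 298 and 239 TPM. The growth-promoting coactivator yki stood at 184 ± 9.98 TPM. The kinases hpo and wts, which hold yki in check, stood at 62.1 ± 4.49 TPM and 42.5 ± 5.58 TPM. The cell death inhibitor Diap1, a yki target, stood at 277 ± 7.67 TPM. Over the death gene hid it was 7.09 ± 0.851, or 9.67 by longest transcript. Cell cycle regulators were detected in 17 of 17 cases with a median of 71.9 TPM. The mitotic genes CycA, CycB and Cdk1 stood at 192 ± 21 TPM, 146 ± 17.4 TPM and 170.1 ± 8.63 TPM. The phosphatase gene stg, which triggers mitosis, had 202, 197 and 144 TPM. The S-phase cyclin CycE stood at 32.5 ± 3.2 TPM, and the growth regulator Myc at 25.6 ± 3.57 TPM. Exons of Myc overlap other genes on the same strand over 20.3% of their bases and genes on the other strand over 40.9%.

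Proneural genes, which found the sensory bristles, were listed together with 2 repressors. Of 9 measured, 5 were detected, a share near the 63.1% of all genes with a length. They were 3 of 7 proneural factors and 2 of 2 repressors. The listed factors amos and cato were not in the table. The repressors emc and h stood at 331 ± 33.7 TPM and 93.5 ± 4.78 TPM, and the general partner da at 107 ± 10.2 TPM. The bristle gene ac had 22.2, 16.5 and 21.4 TPM, and its neighbour sc had 16.3, 11.4 and 13.5 TPM. The sense-organ factor sens had 0.304, 0.283 and 0 TPM, ase had 0.0768, 0 and 0.0328 TPM, and l(1)sc had no read.

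The epithelium was read at high levels. All 18 junction and polarity genes were detected, with a median of 157 TPM. The E-cadherin gene shg had 203, 154 and 147 TPM. The septate junction genes cora, kune and Nrx-IV stood at 399.8 ± 47.6 TPM, 248 ± 6.3 TPM and 219 ± 34.3 TPM. The apical scaffold gene baz was the lowest of the 18, at 24.4 ± 4.39 TPM. Of 13 basement membrane and integrin genes 12 were detected, with a median of 75.4 TPM. The laminin genes LanA and LanB1 stood at 273 ± 62 TPM and 215 ± 19.9 TPM. The collagen IV genes Col4a1 and vkg stood at 75.4 ± 12.2 TPM and 41.2 ± 8.39 TPM. The integrin subunit genes mys, mew and if stood at 195 ± 25.1 TPM, 95.4 ± 16.7 TPM and 50.9 ± 7.2 TPM. The exception was nidogen, Ndg, with 0.0775, 0 and 0.0331 TPM.

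Of 15 heat shock genes 9 were detected, a share near the 63.1% of all genes with a length. The 9 were all 4 constitutive chaperones, 4 of 5 small heat shock genes and 1 of 6 genes of the inducible Hsp70 class, Hsp68. The constitutive chaperone Hsc70-4 stood at 4745 ± 179.9 TPM, and Hsp83 at 522 ± 68.6 TPM. The small heat shock genes were highest in replicate 2, with 509.7, 1006 and 314 TPM for Hsp23 and 103, 309.6 and 40.5 TPM for Hsp26. The inducible Hsp70 copies, near-identical genes whose reads cannot be assigned with certainty, were at most 0.941 TPM on average. Hsp68 had 8.61, 5.85 and 2.54 TPM, highest in replicate 1.

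Of 15 genes for wounds, stress and cell death 12 were detected, with a median of 39.6 TPM. The JNK pathway genes bsk and puc stood at 64.4 ± 4.83 TPM and 35.9 ± 7.17 TPM. The matrix protease Mmp1, a wound output, had 76.1, 75.1 and 41.2 TPM, lower in replicate 3 than in the other libraries. The death gene rpr had 27.9, 39.6 and 33.1 TPM. The immediate early genes kay and sr stood at 69.1 ± 7.63 TPM and 1.34 ± 0.273 TPM, and Hr38 was under the detection level.

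Antimicrobial peptide genes, the effectors of the humoral immune response, differed between the libraries as a list. Of 14 measured 9 were detected at 1 TPM, a share near the 63.1% of all genes with a length, and 5 at 2 TPM. The summed TPM of the 14 was 34.8, 99.5 and 236. All 14 were highest in replicate 3, whereas 31.0% of all genes with a length were highest there. CecB had 11, 29.4 and 38.4 TPM, and DptA had 0.752, 3.64 and 24.3 TPM. AttC and Mtk had reads in replicate 3 alone, at 13.1 and 9.81 TPM. The fat body list of 7 summed to 40.1, 2.63 and 119 TPM, also highest in replicate 3. Its 4 storage protein genes were lowest in replicate 2, where the peptide sum was intermediate. The other 3 fat body markers summed to 0.332, 1.92 and 5.43 TPM, lowest in replicate 1 like the peptide sum. The part of other cells in the peptide levels was not tested.

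Housekeeping genes held the top of the order. Of the 30 highest genes, 28 were cytoplasmic ribosomal protein genes, and the other 2 were the elongation factor gene eEF1alpha1 at 16584 ± 843 TPM and the tubulin gene betaTub56D at 5606 ± 91.7 TPM. RpL41 led with 17094 ± 909 TPM. The 85 cytoplasmic ribosomal protein genes took 39.8% ± 2.24 of the TPM, with 37.3%, 40.3% and 41.7% by library. All but RpS28a were detected. Outside the ribosome, and named after their values were seen, the next were eEF2 at 5166 TPM, Hsc70-4, the chromatin factor Df31 at 4435 TPM and the ribosome-associated scaffold Rack1 at 4259.7 TPM. The 72 mitochondrial ribosomal protein genes were all detected, with a median of 53.3 TPM. Of 36 proteasome genes 33 were detected, with a median of 209 TPM, and Prosbeta2R1, Prosbeta2R2 and Rpn13R were not.

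Paralogues of the same protein differed in level. The tubulin gene alphaTub84B over alphaTub84D was 26.3 ± 2.43, and the cytoplasmic actin gene Act5C over Act42A was 1.78 ± 0.0429. Reads of such near-identical genes may be split between copies, so these ratios are uncertain. Of 13 actin and tubulin genes with a length 7 were detected, a share near the 63.1% of all genes with a length. The flight muscle actin Act88F had 0.117, 0.436 and 0.05 TPM. All 12 glycolysis genes were detected, with a median of 133 TPM. Gapdh2 over Gapdh1 was 3.62 ± 0.163. Hex-A, which starts glycolysis, had 26.4, 42.4 and 19.2 TPM, highest in replicate 2, and lactate dehydrogenase, Ldh, had 17.1, 17.9 and 7.96 TPM, lowest in replicate 3.

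The male-specific RNAs of dosage compensation were both read. lncRNA:roX1 had 372, 336 and 313 TPM, and lncRNA:roX2 had 80.03, 97.9 and 98.5 TPM. Their ratio was 3.75 ± 0.788. The sex determination genes Sxl, tra and dsx stood at 33.5 ± 5.15 TPM, 25.5 ± 1.7 TPM and 9.7 ± 2.87 TPM. The labels do not give the sex of the larvae.

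In families with restricted use, a smaller share of genes was detected than the 63.1% over all genes with a length. Of 17 odorant receptor genes 2 were detected, Or43b at 11.8 TPM and Or85f at 1.65 TPM. Exons of Or43b overlap Cul1 on the other strand over 40.7% of their bases, and the strand setting of the counting is not known. Of 19 gustatory receptor genes 1 was detected, Gr43a, a fructose receptor, at 1.53 TPM. Of 18 ionotropic receptor genes 6 were detected, with Ir76a the highest at 13.2 TPM. Of 16 odorant-binding protein genes 6 were detected, led by Obp56a at 56.5 TPM. Cuticle protein genes of the Cpr family were detected in 13 of 37 cases, led by Cpr49Ah at 134 TPM. Among annotation classes, 71.7% of 10110 protein-coding genes, 23.8% of 743 ncRNA genes and 17.4% of 1052 transposable elements were detected. These are shares of the genes in the table, not of all annotated genes.

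Most genes were steady between the 3 libraries. Over the 6880 genes with a mean normalised count of 50 or more, the median coefficient of variation was 7.40%, where counting error alone gives 3.66%. The highest over the lowest library was 1.15 for the median gene. It reached 2 for 116 genes (1.69%) and 10 for 10 genes. Of the 116, 65 were highest in replicate 2, 26 in replicate 1 and 25 in replicate 3. The count of 116 was 66, 57 and 52 without replicates 1, 2 and 3, and it was 602 at a mean of 10 or more and 27 at a mean of 200 or more.

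The 10 largest ratios belonged mostly to genes of blood, fat body and cuticle. In normalised counts, the phenoloxidase genes of crystal cells had 111, 231 and 0 for PPO2 and 83.8, 152 and 1.26 for PPO1, so both were nearly absent from replicate 3. The larval serum protein genes Lsp1alpha, Lsp1beta and Lsp1gamma were all lowest in replicate 2 and highest in replicate 3. Lsp1alpha had 110.0, 2.13 and 279 normalised counts. Lsp1beta had 245, 2.13 and 1136 normalised counts, and Lsp1gamma had 349.5, 5.33 and 881. The clotting factor gene fon had 75.9, 5.33 and 80.3 normalised counts, like the serum proteins lowest in replicate 2. The odorant-binding gene Obp99b had 6.55, 13.8 and 364 normalised counts, and the mucin gene Muc11A had 1.31, 1.07 and 214. The cuticle gene Lcp4 had 11.8, 147 and 6.32 normalised counts, highest in replicate 2. CG34166, with no name in the annotation used, had 0, 3.2 and 148 normalised counts. By contrast vg had 4773, 4607 and 4067 normalised counts, and nub had 3575, 3653 and 3294.

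**Figure D4:**
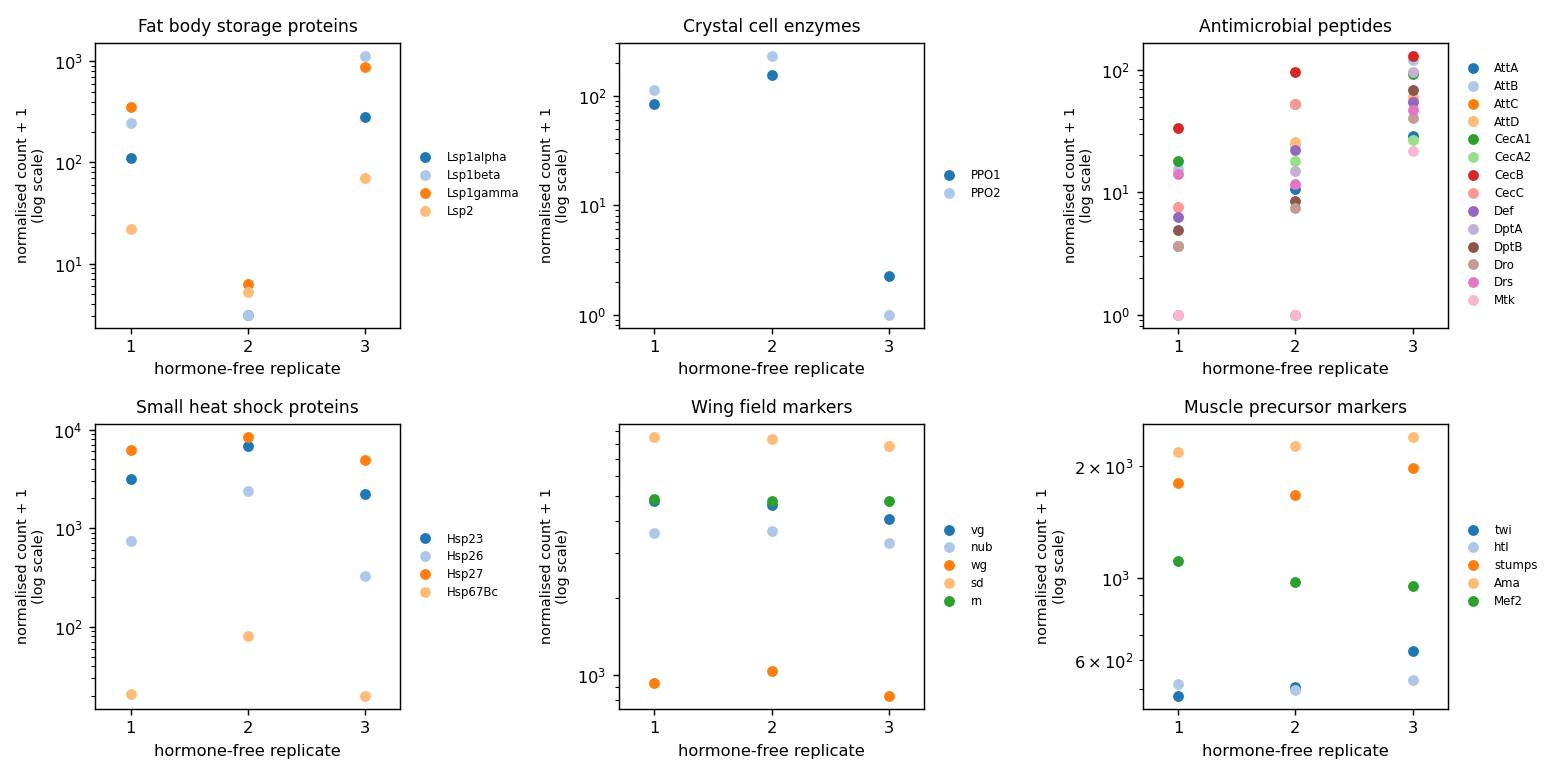
Normalised count plus 1 on a log scale in each hormone-free replicate for 6 groups of genes, with 1 colour for each gene. Storage proteins are lowest in replicate 2, the crystal cell enzymes PPO1 and PPO2 in replicate 3, and the wing and muscle precursor markers lie nearly level.

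The libraries also differed with gene length. The detected genes with a mean normalised count of 50 or more were sorted by exon length into 5 classes of equal size, with median lengths from 948 to 6105 bases. The median log2 ratio of replicate 1 over replicate 2 in normalised counts was −0.12 in the shortest class and 0.15 in the longest. Replicate 1 over replicate 3 gave −0.16 and 0.18. Of the 38 gene lists here 29 had their highest summed TPM in replicate 1, 7 in replicate 2 and 2 in replicate 3. The median over all genes with a length was also highest in replicate 1, at 11.8, 10.7 and 10.05 TPM. All genes together thus leaned to replicate 1 as well, but list sums and a median over genes are unlike measures. Gene by gene in normalised counts, at most 38.95% of all genes with a length were highest in replicate 1. That share places genes without any read there. Whether the lists leaned further to replicate 1 than other genes was not tested. Regulatory genes with long exons, such as ds with 226, 175 and 144 TPM and zfh2 with 141, 83.9 and 87.8 TPM, stood highest in replicate 1, while the short ribosomal protein genes took their lowest share there. The part of length in each gene's spread was not tested.

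**Figure D5:**
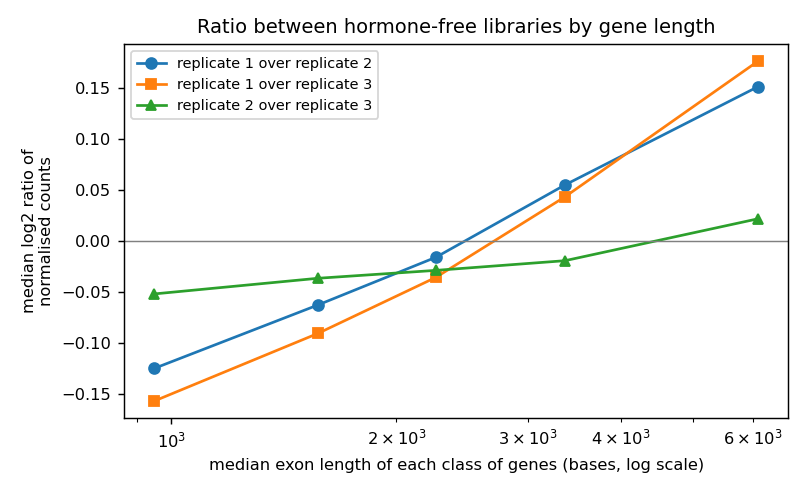
Median log2 ratio of normalised counts between pairs of libraries for the detected genes with a mean normalised count of 50 or more, in 5 classes of exon length from short to long, with a line for each pair. The ratio of replicate 1 over replicate 3 lies between −0.16 in the shortest class and 0.18 in the longest.

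Levels on the X chromosome and the autosomes depended on which genes were counted. Over all protein-coding genes the median was 24.1 TPM on the X and 20.5 TPM on the autosomes, a ratio of 1.19 ± 0.0338. Among detected genes it was 39.1 TPM on the X and 40.2 TPM on the autosomes, a ratio of 0.987 ± 0.00714. The 77 genes of chromosome 4 had a median of 41.8 TPM. None of 2 genes on the Y was detected. Gene structure was described over genes with a read, cut into 10 classes of equal size by mean TPM. Genes of a single exon block made up 34.3% of the lowest class, 42.7% of the class in the fourth place from below, where their share was highest, and 6.42% of the highest class. The median exon length was 2514 bases in the lowest class, the longest of the 10, and 1121 bases in the third from below, the shortest. It was 2447 bases in the class next to the highest and 2024.5 bases in the highest. Since TPM divides by exon length, few reads on a long gene give a low TPM. Lengths in the lowest classes therefore partly follow from the measure.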

How the data were processed

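Libraries were made with a directional poly(A) kit, per the labels, which elsewhere give total RNA; the kit bears on the shares of non-coding genes. The submitters' processing notes name the aligner HISAT2 (2.1.0), SAMtools (1.13), the Subread package (2.0.1) and DESeq2 (1.32.0). Neither the genome build nor the annotation or strand setting is given in those notes or labels. The deposited signal is a normalised count per gene, read from the values as a count divided by 1 factor per library. In every library 100% of the values were whole multiples of the smallest one within 0.001, which gives the reads quoted above. TPM were computed here from the deposited values with the exon lengths of Ensembl release 115 (BDGP 6.54), using Python 3.11.15 and pandas 2.3.3. Identifiers were found in that annotation for 12167 of 12216 genes. No test was made, since there is 1 group and 3 libraries. The script was checked on simulated data with counting error alone, drawn from the same means and exon lengths. Such a check cannot test the real spread between libraries.

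The genes named are members of the fixed lists, the 30 highest, the 10 of largest ratio between libraries, and the top 3 of each gene family. Genes named outside these, chosen after their values were seen, are eEF2, Df31, Rack1, the undetected ribosomal protein and proteasome genes, and ple, e, b, Tsf1, cbt, Drat and ImpE2. Members and lists were chosen with earlier results of these data known. Antisense and overlapping genes cannot be told apart where strand was not used in counting. Alternatives changed the detection level, the gene length, the minimum count and the libraries kept. Ratios at these depths carry counting error as well as preparation error. No promoter or protein sequence was used here.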

Additional observations from a re-analysis of the deposited data

How the results depend on the processing

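The number of detected genes stayed within 1.5 times of 7679 under every alternative tried, from 7176 at 2 TPM to 8188 at 0.5 TPM, as did the number of list members detected (332, with 318 to 339 under the alternatives). The median of detected genes and the number of neighbouring pairs apart (169, or 167 by longest transcript) moved as little. The number of genes with a ratio of 2 or more between libraries depended on the minimum count. It was 116 at a mean of 50, 602 at a mean of 10 and 27 at a mean of 200, and it was 52 to 66 when 1 replicate was left out, where fewer libraries enter the ratio. X over autosomes was 1.19 over all protein-coding genes and 0.987 among detected ones. Of 266 recomputed list counts 12 changed by more than 1.5 times, in the lists for blood cells, fat body, germline, antimicrobial peptides and immediate early genes, and others changed by less (nuclear receptors 12, or 16 at a normalised count of 10). Antimicrobial peptides detected were 9 at 1 TPM, 5 at 2 TPM and 4 at a normalised count of 10. Without replicate 2, 4 of 7 fat body markers were detected, and without replicate 3, 3 of 10 blood cell markers were. By its longest transcript nub stood at 98.8 TPM, against 88.5 TPM by total exon length. The planned look at promoter motifs was not run. No paired analysis was possible because every result comes from no test within 1 group. Depth limits genes under about 3 reads per library, of which 1324 had 1 to 3 reads in all.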

Other observations

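A few genes outside the lists, chosen after their values were seen, also differed between the libraries. The cuticle tanning gene ple, which encodes tyrosine hydroxylase, had 141, 490.1 and 765 normalised counts in replicates 1, 2 and 3. The pigment genes e and b, of the same biochemical route, had 174, 469.8 and 613 for e and 68.1, 174 and 219 for b. All were highest in replicate 3 and lowest in replicate 1. The iron carrier gene Tsf1 had 211, 493 and 889.7 normalised counts in the same order. A different order was seen for cbt, a zinc-finger gene, with 859, 266 and 949.8 normalised counts, for Drat with 3720.5, 1994 and 6006, and for ImpE2, named for its induction by ecdysone, with 209, 67.1 and 101. These 3 genes were lowest in replicate 2. No cause was tested for either order.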
